A study of Mus musculus with 2 samples.

Results

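The genes described here encode receptors, or receptor chains, for growth factors, cytokines and insulin. They are Kit, Epor, Csf2rb, Csf2rb2, Csf2ra, Il3ra, Igf1r and Insr, chosen by symbol as 8 of the 25791 gene rows in the deposited table. The maturation group held mouse Extensively Self-Renewing Erythroblasts (ESREs) 1 day into maturation, and the expansion group held ESREs kept proliferating. ESREs are immature red cell precursors that go on dividing in culture. Both groups are labelled with a C57/bl6 background, the series title names transgenic β-Yac mice, and the labels do not say whether the sequenced cells carried that transgene. The labels cite a published method for growth and maturation, without naming the factors in the medium, so nothing here says which receptor ligands each group received.

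Kit is a receptor tyrosine kinase that binds stem cell factor and keeps early erythroid progenitors dividing. The erythropoietin receptor has no kinase of its own and signals through JAK2 and STAT5 to keep later erythroblasts alive. Csf2rb encodes the beta chain shared by the receptors for IL-3, IL-5 and GM-CSF, and Csf2rb2 encodes a mouse beta chain used by the IL-3 receptor. Each works with an alpha chain that gives ligand specificity, such as those encoded by Csf2ra (GM-CSF) and Il3ra (IL-3). Igf1r and Insr encode the related tyrosine kinase receptors for insulin-like growth factors and insulin.

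Levels are FPKM, fragments per kilobase of transcript and per mapped fragments of the library, so genes can be compared with each other per length. The authors deposited 1 value per gene and group. No difference below has a replicate check, no p-value or SD can be given, and the sequencing depth is unknown. Neighbours in an order of levels can therefore not be separated by replicate spread. These are bulk samples, in which fewer cells of a kind and less RNA per cell cannot be told apart.

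After 1 day of maturation the receptor set was dominated by Epor, whereas Kit led it in expansion. Kit was at 1.40 FPKM in maturation and 16.8 FPKM in expansion, a 12.03-fold lower level. Epor was at 13.9 FPKM in maturation and 9.12 FPKM in expansion, a 1.53-fold higher level. The Epor level was therefore 9.97 times the Kit level in maturation and 0.542 times in expansion. Of the summed FPKM of the 8 receptors, which was 18.8 in maturation and 44.5 in expansion, Epor made up 74.1% in maturation and 20.5% in expansion. Kit made up 7.44% of that sum in maturation and 37.8% in expansion.

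**Figure D1:**
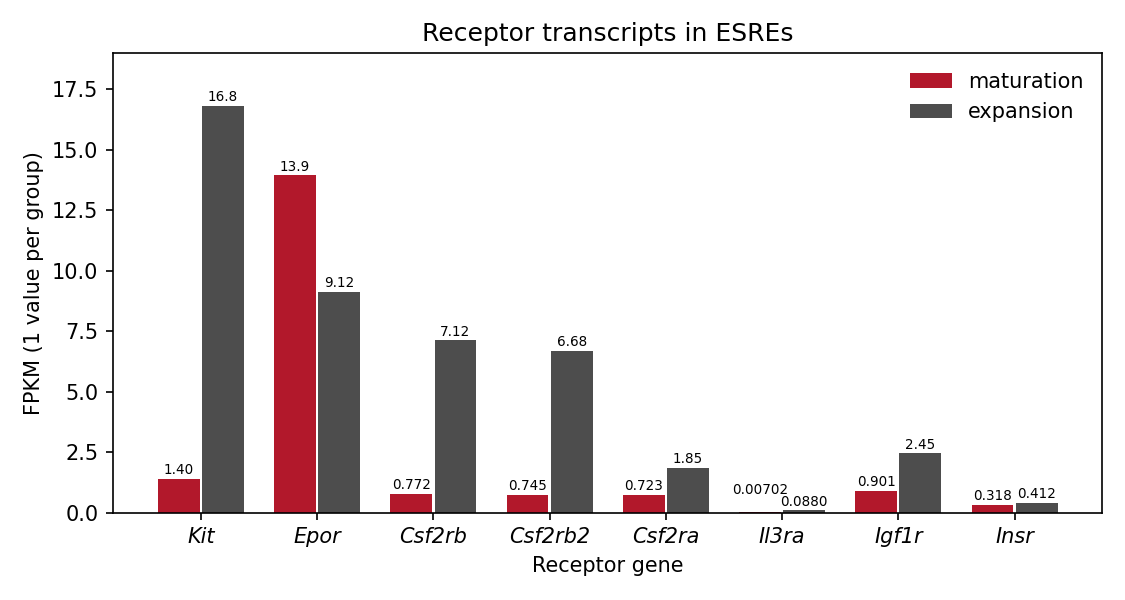
Bars give the deposited FPKM of each receptor gene in maturation (red) and expansion (grey), 1 value per group with no error available. Kit stands at 1.40 FPKM in maturation and 16.8 FPKM in expansion, Epor at 13.9 FPKM in maturation and 9.12 FPKM in expansion, and the other 6 genes are all lower in maturation.

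In order of level, the maturation group ran Epor, Kit, Igf1r, Csf2rb, Csf2rb2, Csf2ra, Insr and Il3ra. The expansion group ran Kit, Epor, Csf2rb, Csf2rb2, Igf1r, Csf2ra, Insr and Il3ra. In maturation only Epor and Kit reached 1 FPKM, and Igf1r, Csf2rb, Csf2rb2 and Csf2ra lay close together between 0.723 and 0.901 FPKM. In expansion 6 of the 8 genes reached 1 FPKM. Among the 9263 rows at 1 FPKM or more in at least 1 group, called expressed here, 81.2% stood at or below the Epor level in maturation and 71.7% in expansion. For Kit these shares were 21.9% in maturation and 82.3% in expansion.

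Differences were measured as the log2 ratio of maturation over expansion after adding 1 to each FPKM, which understates the difference of weakly expressed genes. By this measure Kit differed by -2.89, the rank of 13 from the lowest among the 9263 expressed rows. Csf2rb differed by -2.20 and Csf2rb2 by -2.14, at ranks 62 and 78. These were the 3 of 8 receptors at least 2-fold lower, and 0 were at least 2-fold higher. Among all expressed rows 6.7% were at least 2-fold lower and 3.13% at least 2-fold higher, or 621 and 290 rows. The median log2 ratio was -0.79 over the 8 receptors and -0.0024 over all 25791 rows. Among expressed rows it was -1.50 over the 6 receptors and -0.25 over all 9263. When ratios were centred on the median of expressed rows, 363 (3.92%) of all expressed rows were lower and 420 (4.53%) higher, and Kit, Csf2rb and Csf2rb2 were still past 2-fold lower. Of the 6 receptors that reached 1 FPKM, 4 did so only in expansion, so the filter itself favours lower values among them.

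**Figure D2:**
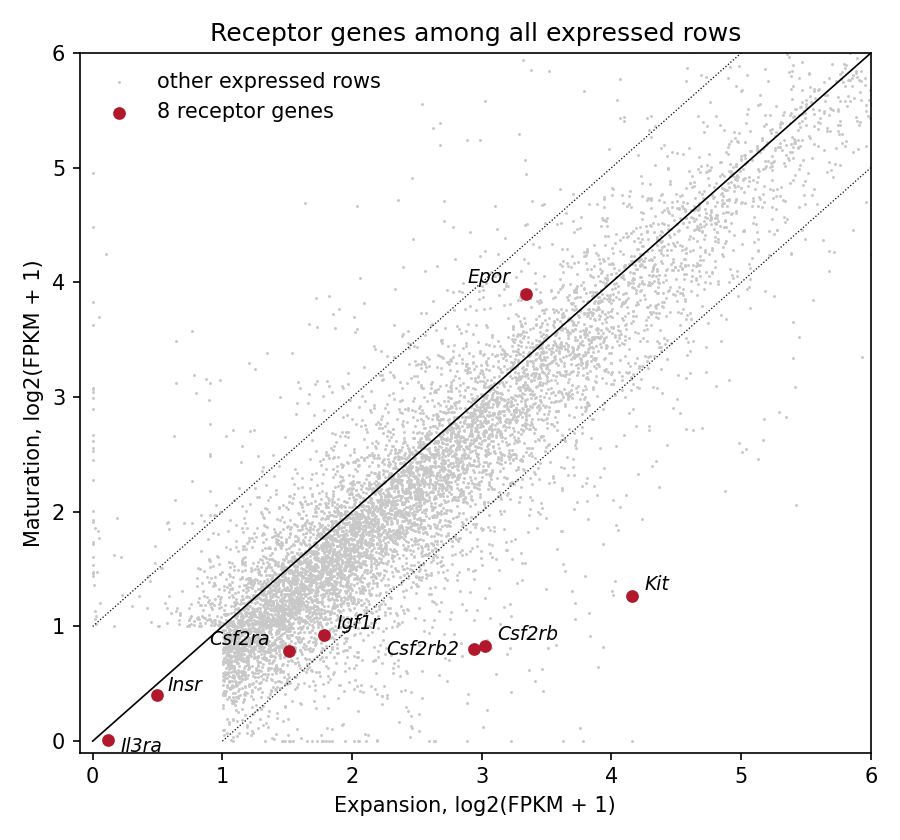
Each point is a gene row, with log2(FPKM + 1) in maturation on the vertical axis and in expansion on the horizontal axis, the solid line at equality and the dotted lines at 2-fold (rows beyond the axes are not drawn). Kit, Csf2rb and Csf2rb2 lie below the lower dotted line, and Epor is the receptor above the solid line.

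Kit lies on chromosome 5 (75971012 to 76052747 on mm9) and no other row of the table overlaps it. Epor lies on chromosome 9 (21763343 to 21768020) and likewise shares its locus with no other row. The log2 ratio of Epor was 0.56, within 2-fold, and 0.81 once centred on the median of expressed rows.

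The bases before the start of Kit, Epor and Csf2rb2 are shown because these genes carry the contrast between the lower and the higher receptors. RefSeq (GRCm38.p6) gave a promoter for 6 of the 8 genes: Kit, Epor, Csf2rb2, Csf2ra, Il3ra and Igf1r. The windows are the 250 bases upstream of the start at chr5:75574737-75574986 (plus strand), chr9:21963577-21963826 (minus strand) and chr15:78305722-78305971 (minus strand), written 5′ to 3′ with capitals at matches to a GATA or a CACCC-type motif on either strand.
Kit: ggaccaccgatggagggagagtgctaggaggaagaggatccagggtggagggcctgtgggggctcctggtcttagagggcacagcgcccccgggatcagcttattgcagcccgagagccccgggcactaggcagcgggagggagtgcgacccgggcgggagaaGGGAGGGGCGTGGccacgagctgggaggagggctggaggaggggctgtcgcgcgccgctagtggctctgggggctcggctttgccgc
Epor: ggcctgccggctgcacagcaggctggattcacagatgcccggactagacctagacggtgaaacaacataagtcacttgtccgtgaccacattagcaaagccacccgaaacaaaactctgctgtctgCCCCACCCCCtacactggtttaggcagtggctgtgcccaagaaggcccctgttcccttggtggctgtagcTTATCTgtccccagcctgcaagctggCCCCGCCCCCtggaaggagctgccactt
Csf2rb2: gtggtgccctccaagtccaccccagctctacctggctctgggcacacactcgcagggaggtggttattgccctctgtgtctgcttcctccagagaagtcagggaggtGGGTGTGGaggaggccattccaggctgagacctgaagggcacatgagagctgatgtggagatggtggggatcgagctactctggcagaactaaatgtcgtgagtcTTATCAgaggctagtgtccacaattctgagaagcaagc

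The GATA motif, bound by factors such as GATA1 and GATA2, was searched as the letters GATA with an A or a T before them and an A or a G after them. The CACCC-type motif was searched as CCNCNCCC, which also takes in GC boxes and can overlap itself. A GATA match began 54 bases before the Epor start and 38 bases before the Csf2rb2 start, and these letters were not in the Kit window. Il3ra, listed near 0 in both groups, also had a GATA match, 147 bases before its start. Of all 32841 RefSeq windows of this length 26.5% held a GATA match and 45.9% held a CACCC-type match. CACCC-type matches were present in all 6 receptor windows, with 4 matches in overlapping pairs before Epor, 2 before Kit and 1 before Csf2rb2. The ETS-type motif GAGGAA, bound by PU.1, occurred before Kit, Csf2rb2 and Csf2ra and in 23.3% of all windows. The STAT motif TTCNNNGAA occurred before Csf2rb2 only among the 6, 15 bases from the start, and in 7.02% of all windows. These are matches of letters on a later genome build, and no binding was measured.

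**Figure D3:**
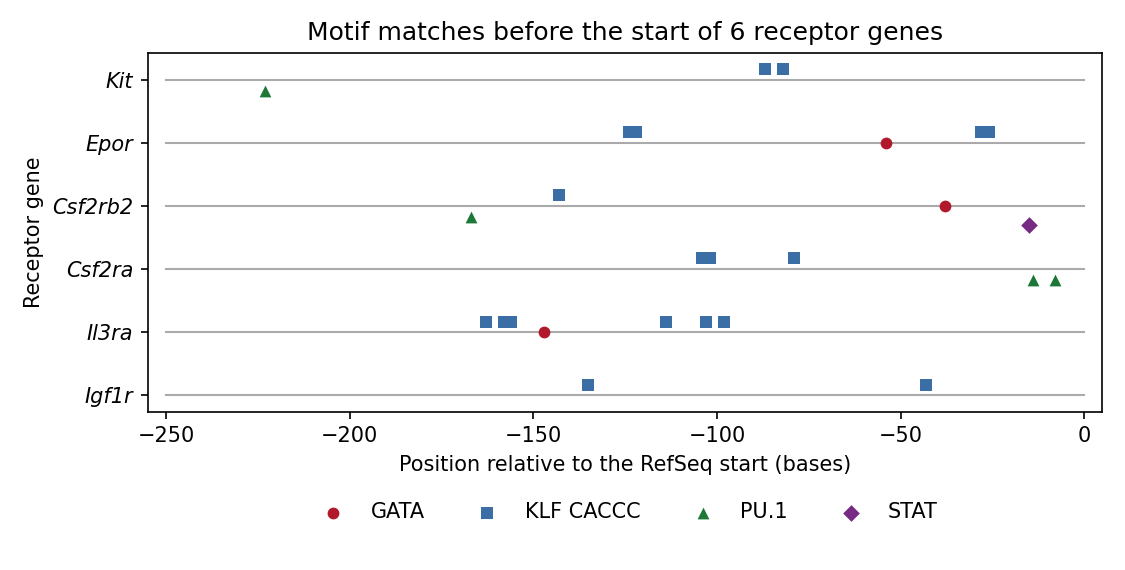
Symbols mark the first base of each motif match in the 250 bases before the RefSeq start of 6 receptor genes, with GATA as circles, CACCC-type as squares, PU.1 as triangles and STAT as a diamond. GATA matches stand 54 bases before Epor, 38 before Csf2rb2 and 147 before Il3ra.

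The beta chains of the IL-3, IL-5 and GM-CSF receptors differed together. Csf2rb was at 0.772 FPKM in maturation and 7.12 FPKM in expansion, a 9.22-fold lower level. Csf2rb2 was at 0.745 FPKM in maturation and 6.68 FPKM in expansion, an 8.96-fold lower level. The ratio of Csf2rb to Csf2rb2 was 1.04 in maturation and 1.07 in expansion. The genes are neighbours on chromosome 15 (78156420 to 78181431 and 78112940 to 78136033 on mm9) and similar in sequence. Of 36-base stretches of the longest protein-coding GENCODE M21 transcript of Csf2rb, 24.9% occurred unchanged in that of Csf2rb2, and 10.7% of 75-base stretches did. No source used here gives the read length, and reads may be divided between these rows and their near equality is uncertain. A further row, LOC100504034, has the same locus as Csf2rb and was at 0.0653 FPKM in maturation and 0.937 FPKM in expansion.

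In expansion the alpha chains stood well below the beta chains, and in maturation Csf2ra and the beta chains lay close together. Csf2ra, the GM-CSF-binding chain, was at 0.723 FPKM in maturation and 1.85 FPKM in expansion. Its log2 ratio was -0.73, within 2-fold with 1 added, while the plain ratio of the FPKM values was 2.56-fold lower. The Csf2ra level was 0.937 times that of Csf2rb in maturation and 0.260 times in expansion. The Csf2ra row spans 4017 bases on mm9 (chromosome 19, 61300305 to 61304321), and the RefSeq gene on GRCm38.p6 spans 11271 bases, so the row may cover only part of the gene as now annotated. Il3ra, the IL-3-binding chain, was at 0.00702 FPKM in maturation and 0.0880 FPKM in expansion, which is too near 0 for a fold. Its level was 0.942% of the Csf2rb2 level in maturation and 1.32% in expansion. Il5ra, the IL-5-binding chain, was at 0.072 FPKM in maturation and 0.245 FPKM in expansion.

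The insulin-family receptors were weakly expressed. Igf1r was at 0.901 FPKM in maturation and 2.45 FPKM in expansion, with a log2 ratio of -0.86 and a plain 2.72-fold lower level. Insr was at 0.318 FPKM in maturation and 0.412 FPKM in expansion, below 1 FPKM in both groups, with a log2 ratio of -0.10. Igf1r stood at 2.84 times the Insr level in maturation and at 5.94 times in expansion. With 0.1 added to each FPKM in place of 1, Igf1r and Csf2ra also passed 2-fold, so that 5 of the 8 receptors were lower, against 14.1% of expressed rows. When both groups were rescaled to equal sums without short RNA rows, Igf1r passed 2-fold and the count was 4, against 9.67% of expressed rows. The shared total was set above the summed FPKM of either group, 416690 in maturation and 411084 in expansion. Every FPKM therefore rose while the added 1 stayed the same. This setting thus also acts as a smaller pseudocount and is not independent of the setting with 0.1 added.

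The ligands of these receptors were at or near 0. All 9 ligand genes (Kitl, Epo, Il3, Csf2, Il5, Igf1, Igf2, Ins1 and Ins2) were under 0.1 FPKM in both groups, with sums of 0.0915 FPKM in maturation and 0.106 FPKM in expansion. Kitl, which encodes stem cell factor, was at 0.00598 FPKM in maturation and 0.00409 FPKM in expansion. Epo was at 0.0163 FPKM in maturation and listed at 0 in expansion.

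Few other receptors of these families reached 1 FPKM. Among 41 further chains of the type I and type II cytokine receptor families 10 were expressed. Of these, 2 were past 2-fold lower and 0 past 2-fold higher, against 6.7% and 3.13% of all expressed rows. The median log2 ratio of the 10 chains was -0.68. Those 2 were the interferon gamma receptor chains, Ifngr1 at 0.395 FPKM in maturation and 3.42 FPKM in expansion, and Ifngr2 at 0.521 FPKM in maturation and 2.30 FPKM in expansion. Crlf2, a chain of the TSLP receptor, was at 0.858 FPKM in maturation and 2.63 FPKM in expansion, within 2-fold by the log2 ratio, as were the IL-12 receptor chain gene Il12rb2 at 0.690 FPKM in maturation and 1.84 FPKM in expansion and the IL-10 receptor chain gene Il10rb at 1.78 FPKM in maturation and 3.26 FPKM in expansion. Of the 10 chains, 5 reached 1 FPKM only in expansion. Their count past 2-fold depended on the setting, from 0 with 5 added to each FPKM to 5 with 0.1 added. In these settings 1.6% and 14.1% of all expressed rows were past 2-fold lower. Of 51 receptor tyrosine kinases other than Kit, Igf1r and Insr, 2 were expressed. Ryk was at 4.19 FPKM in maturation and 4.70 FPKM in expansion, and Fgfr3 was at 0.913 FPKM in maturation and 1.09 FPKM in expansion. Kit thus had the highest level of any receptor tyrosine kinase looked up in expansion, while Ryk stood above Kit in maturation.

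Below the receptors, 43 of 53 partner and regulator genes were expressed. Past 2-fold, 11 were lower and 1 was higher, around a median log2 ratio of -0.50. Of all expressed rows 6.7% were lower and 3.13% higher. A level of 1 FPKM was reached only in expansion by 11 of them. The count of lower genes ranged from 2 with 5 added to each FPKM to 16 with 0.1 added. In these settings 1.6% and 14.1% of all expressed rows were lower. After centring on the median of expressed rows 7 list genes were lower and 2 higher, against 3.92% and 4.53% of all expressed rows. The list was not divided by receptor, and 31 of the 43 expressed genes were within 2-fold. Among these were the adaptor genes Shc1, at 7.46 FPKM in maturation and 5.80 FPKM in expansion, and Gab1, at 1.88 FPKM in maturation and 1.13 FPKM in expansion. Some genes that act below Kit and other receptors were among the lower ones. Dok2, an adaptor that restrains RAS signalling, had the lowest log2 ratio of the list (-2.19), at 0.125 FPKM in maturation and 4.15 FPKM in expansion. Lyn, a SRC-family kinase, was at 1.03 FPKM in maturation and 7.82 FPKM in expansion. Grb2, an adaptor that links receptors to RAS, was at 5.61 FPKM in maturation and 22.8 FPKM in expansion. Gab2, a docking protein that binds Grb2, was at 1.21 FPKM in maturation and 6.80 FPKM in expansion. Within the PI3-kinase catalytic subunits the isoforms differed, as Pik3cd was at 0.634 FPKM in maturation and 5.73 FPKM in expansion, whereas Pik3cb was at 2.49 FPKM in maturation and 0.953 FPKM in expansion. Grb10, an adaptor that restrains insulin and IGF1 receptor signalling, was at 1.08 FPKM in maturation and 6.68 FPKM in expansion.

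The partners of Epor were mixed. Jak2, the kinase bound to the erythropoietin receptor, was at 2.31 FPKM in maturation and 3.44 FPKM in expansion, within 2-fold. Stat5a was at 3.21 FPKM in maturation and 10.001 FPKM in expansion, and Stat5b at 2.60 FPKM in maturation and 7.05 FPKM in expansion. Cish, a STAT5 target that dampens cytokine receptor signalling, was the 1 gene of the list at least 2-fold higher, at 25.2 FPKM in maturation and 5.53 FPKM in expansion. Trfr2, the row of transferrin receptor 2, which associates with the erythropoietin receptor, was at 4.14 FPKM in maturation and 4.99 FPKM in expansion. Socs1, an inhibitor of JAK kinases, was at 0.330 FPKM in maturation and 1.79 FPKM in expansion.

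**Figure D4:**
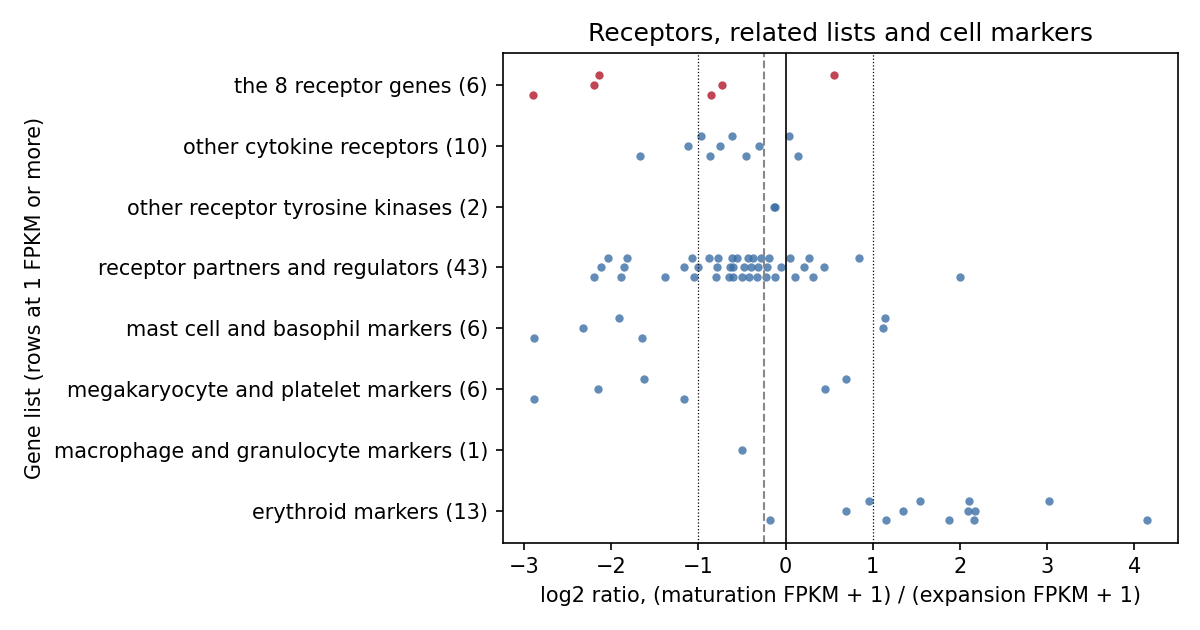
Points are the log2 ratios, (maturation FPKM + 1) over (expansion FPKM + 1), of list genes at 1 FPKM or more in a group, with the number of points in parentheses, dotted lines at 2-fold and a dashed line at the median of all expressed rows (-0.25). Kit, Csf2rb and Csf2rb2 are the receptor points left of the lower dotted line, and Epor is the receptor point right of 0.

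Kit and the beta chains are also expressed by mast cells, and several markers of mast cells and basophils were lower in maturation too. Of all expressed rows 6.7% were at least 2-fold lower and 3.13% at least 2-fold higher in maturation. All 13 erythroid markers looked up were expressed, and 10 of them were at least 2-fold higher in maturation, around a median log2 ratio of 1.88. Gata1 and Ermap were higher but within 2-fold. Rhag went the other way within 2-fold, at 44.7 FPKM in maturation and 50.6 FPKM in expansion. Klf1, an erythroid transcription factor, was at 42.7 FPKM in maturation and 18.7 FPKM in expansion. Slc4a1, the anion exchanger of later erythroid cells, was at 17.999 FPKM in maturation and near 0, at 0.0744 FPKM, in expansion. The part of this shift in the Epor and Kit levels was not tested. The 14 rows of mast cell and basophil markers summed to 6.13 FPKM in maturation and 25.1 FPKM in expansion, and past 2-fold 4 of the 6 expressed markers were lower and 2 higher. Of these 6, Ms4a2, Fcer1a and Hdc reached 1 FPKM only in expansion, and Mcpt1 and Mcpt2 only in maturation. The filter itself therefore favours large differences among these markers. Ms4a2, the beta subunit of the high-affinity IgE receptor, stood at 0.0903 FPKM in maturation and 7.07 FPKM in expansion, and Fcer1a, its alpha subunit, at 0.605 FPKM in maturation and 4.01 FPKM in expansion. Hdc, which encodes the enzyme that makes histamine, was at 0.0945 FPKM in maturation and 4.47 FPKM in expansion. Il1rl1, the IL-33 receptor, was at 1.64 FPKM in maturation and 8.92 FPKM in expansion. These 4 markers were therefore lower together with Kit and the beta chains. Of the protease genes, Cpa3 was listed at 0 in maturation and at 0.107 FPKM in expansion, and Tpsb2 was at 0.0101 FPKM in maturation and 0.0138 FPKM in expansion. Mcpt8, a basophil protease gene, was listed at 0 in both groups, whereas Mcpt1 was at 1.20 FPKM in maturation and 0.0139 FPKM in expansion and Mcpt2 at 1.30 FPKM in maturation and 0.0406 FPKM in expansion. Mcpt4 was at 0.715 FPKM in maturation and 0.00971 FPKM in expansion, and Cma1 at 0.288 FPKM in maturation and 0.192 FPKM in expansion. Slc18a2, another marker of the list, was at 0.184 FPKM in maturation and 0.291 FPKM in expansion. The part of these cells in the lower Kit and beta chain levels was not tested.

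Megakaryocyte markers were mixed. Of 6 expressed markers 4 were at least 2-fold lower, against 6.7% of all expressed rows. These 4 reached 1 FPKM only in expansion, and Gp9 only in maturation, so the filter itself favours large differences among the markers. The sums over 12 rows were 22.5 FPKM in maturation and 37.2 FPKM in expansion. Tubb1, a beta tubulin gene, supplied much of these sums, at 18.3 FPKM in maturation and 13.1 FPKM in expansion, and the other 11 rows summed to 4.25 FPKM in maturation and 24.2 FPKM in expansion. The 4 lower markers were platelet adhesion receptor genes. Gp5 was at 0.438 FPKM in maturation and 9.63 FPKM in expansion, and Gp1ba at 0.845 FPKM in maturation and 7.22 FPKM in expansion. Itga2b was at 0.996 FPKM in maturation and 5.15 FPKM in expansion, and Itgb3 at 0.0531 FPKM in maturation and 1.35 FPKM in expansion. Gp9 was higher, at 1.84 FPKM in maturation and 0.756 FPKM in expansion. Pf4, which encodes platelet factor 4, was listed at 0 in maturation and at 0.0333 FPKM in expansion. The 17 macrophage and granulocyte marker rows, of cells that carry the GM-CSF receptor, summed to 0.704 FPKM in maturation and 1.41 FPKM in expansion, and 15 of the 17 were under 0.1 FPKM in both groups. Cd68 was the 1 expressed among them, at 0.539 FPKM in maturation and 1.18 FPKM in expansion. The part of megakaryocytes in the receptor levels was not tested.

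The rows closest in level to Kit and to Epor were found by the distance between their log2(FPKM + 1) values over the 2 groups. For Kit these were Muc13, a mucin gene, Dapp1, which encodes an adaptor that binds PI3-kinase lipids, Psen2, which encodes a presenilin of the gamma-secretase complex, Myb, a transcription factor of progenitors, and Rab38, a small GTPase gene, at distances of 0.14 to 0.40. Muc13 was at 1.42 FPKM in maturation and 15.1 FPKM in expansion, and Myb at 1.17 FPKM in maturation and 13.2 FPKM in expansion. For Epor they were Ncapd2 (a condensin subunit), Kcnn4 (a calcium-activated potassium channel of red cells), Comt1 (catechol O-methyltransferase), Epb4.1 (red cell protein 4.1) and Lig1 (DNA ligase I), at distances of 0.021 to 0.062. Ncapd2 was at 14.0 FPKM in maturation and 8.99 FPKM in expansion. With 1 value per group, many rows can lie this close to a gene.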

How the data were processed

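RNA of ESREs in maturation and in expansion was extracted with a Qiagen kit and sequenced from NextFlex libraries, per the labels' protocols. The authors deposited FPKM values, with 1 column for each group, per the file headers. The submitters' processing notes name Cuffdiff 2.0.2 and mm9. The aligner, annotation and read length are not given in the sources. The design text mentions duplicates, so each value was taken as the authors' pooled value. The depth is unknown. FPKM depends on the modelled transcript length and on how reads shared by similar genes are divided.

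From these values log2 ratios (pseudocount 1) and plain folds were computed with Python 3.11.15, numpy 2.4.6 and pandas 2.3.3. A row was called expressed at 1 FPKM or more in a group, and 2-fold was used to describe size. The fold counts and the motif search were tested on simulated data. Table starts were counted from 0 (182 of 385 microRNA rows matched the RefSeq length on that reading, and 0 when counted from 1), and are given from 1. List genes were matched by symbol or RefSeq synonym, and Tpsab1 was not analysed here. The named genes are all 8 receptors, all ligands, and up to 6 genes per list with the largest ratio plus some other list genes at 1 FPKM or more. They also include the cell type markers at 1 FPKM or more (for erythroid markers a selection) and the 5 rows nearest to Kit and to Epor. Il5ra and some cell type markers below 1 FPKM were named outside these rules. The members and lists were chosen with earlier results of these data known. Alternatives covered the pseudocount, the filter and 3 scalings. The rescaling to equal sums also raised the FPKM values, which lowered the weight of the pseudocount.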

Additional observations from a re-analysis of the deposited data

How the results depend on the processing

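Kit, Csf2rb and Csf2rb2 stayed at least 2-fold lower in maturation under all 7 alternatives tried, with log2 ratios of -3.50 to -1.77 for Kit, -3.05 to -1.07 for Csf2rb and -3.003 to -1.02 for Csf2rb2. Epor stayed higher and within 2-fold, at 0.42 to 0.81. The count of receptors at least 2-fold lower was 3 as reported, 5 with a pseudocount of 0.1, 4 when rescaled to equal sums without short RNA rows, and 3 under the other 5 alternatives. For the other cytokine receptors the count of 2 of 10 became 5 with a pseudocount of 0.1 and 0 with a pseudocount of 5. It was 1 after centring and 5 when rescaled to equal sums without short RNA rows, against 3.92% and 9.67% of all expressed rows. At a minimum of 5 FPKM only 2 of these genes were left, and 0 were lower. For the partners and regulators the count of 11 of 43 became 2 with a pseudocount of 5 and 7 after centring. It was 16 with a pseudocount of 0.1, 13 when rescaled and 10 after upper quartile scaling. The shares of all expressed rows lower were 1.6% with a pseudocount of 5 and 3.92% after centring. They were 14.1% with a pseudocount of 0.1, 9.67% when rescaled and 5.08% after upper quartile scaling. At a minimum of 5 FPKM 14 of these genes were left, and 7 were lower, against 7.92% of all rows at that minimum. The cause of each change was not tested, apart from effects that follow by construction. A larger pseudocount shrinks the ratios of weakly expressed genes, and a higher minimum leaves fewer genes. Rescaling to equal sums raised the FPKM values against an unchanged pseudocount, which enlarges the ratios of weakly expressed genes. Over all expressed rows the counts lower and higher were 1303 and 373 with a pseudocount of 0.1, 148 and 166 with a pseudocount of 5, and 471 and 379 after upper quartile scaling, which left a median log2 ratio of -0.08. No other receptor tyrosine kinase reached 5 FPKM, so that setting gave no count for them. No paired analysis was possible because the table holds 1 value per group. Without counts, depth limits cannot be given.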

Other observations

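Il9r, the ligand-binding chain of the IL-9 receptor, had the highest level of the cytokine receptor chains looked up in maturation after Epor. It was at 9.27 FPKM in maturation and 8.30 FPKM in expansion. Il2rg, the common gamma chain with which it pairs, was at 1.003 FPKM in maturation and 2.66 FPKM in expansion. By plain folds Il2rg was 2.65-fold lower in maturation, while Il9r was nearly level at 1.12-fold. Both were within 2-fold by the log2 ratio. Il9r lies on chromosome 11 (32088997 to 32100279 on mm9), 83 kb from the adult alpha globin gene Hba-a1. Between them the table lists Snrnp25 at 8.53 FPKM in maturation and 5.43 FPKM in expansion, Rhbdf1 at 0.0713 FPKM in maturation and 0.108 FPKM in expansion, Mpg at 3.63 FPKM in maturation and 2.80 FPKM in expansion, Mare at 3.53 FPKM in maturation and 3.65 FPKM in expansion, and Hba-x, an embryonic alpha-type globin gene, at 154 FPKM in maturation and 37.2 FPKM in expansion. Il9r and these neighbours were chosen after their values were seen.

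The chains of the interferon receptors differed among themselves. Ifngr1 and Ifngr2 were 8.67-fold and 4.41-fold lower in maturation, whereas Ifnar2, a chain of the type I interferon receptor, was at 4.37 FPKM in maturation and 4.202 FPKM in expansion. Its partner Ifnar1 was at 0.822 FPKM in maturation and 1.26 FPKM in expansion.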
